A study of Mus musculus with 6 samples.

Results

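Nidogen 1 (Nid1), nidogen 2 (Nid2), perlecan (Hspg2), agrin (Agrn) and nephronectin (Npnt) are 5 of the 24391 genes in the count table, and they were taken by name as linker and proteoglycan genes of basement membranes. All 5 passed the filter on low counts. RNA was sequenced from arteries labelled BCA, read here as the brachiocephalic artery, which the labels call atherosclerosis lesion with a mixture of cell types (smooth muscle, epithelial, macrophage and others). The Col15a1-/- (KO) group held 3 mice and the wild type (WT) group held 3 mice, all with a C57BL/6 background and all kept on a Western diet for 18 weeks. The series title calls the deletion smooth muscle cell-specific, while the sample labels give the genotype as Col15a1 -/-, and the Cre driver, age and sex are not given in the sources used here. The comparison asked how transcript levels in KO lesions differed from those in WT lesions.

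Basement membranes are sheets of matrix under endothelium and around each smooth muscle cell. They are built from a laminin network and a type IV collagen network. Nidogens are rod-shaped glycoproteins that bind the laminin gamma 1 chain and type IV collagen. Perlecan and agrin are large proteoglycans with heparan sulphate chains, which hold growth factors, and both bind the receptor dystroglycan. Nephronectin is a secreted protein with EGF-like repeats and an integrin-binding RGD sequence, and it is a ligand of integrin alpha 8 beta 1. Type XV collagen, the product of the deleted gene, lies in the zone where basement membrane meets interstitial matrix.

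The targeted gene checked the labels first. Col15a1 had 4487, 4542 and 2307 reads in KO 1, KO 2 and KO 3, against 12629, 12111 and 12973 reads in WT 1, WT 2 and WT 3, so each KO library lay below each WT library and some Col15a1 signal remained in KO. Gene counts summed to 22223584 to 26982005 per library. WT 2 and KO 3 stood apart from the rest, with 3127 and 5976 CPM summed over 8 markers of sympathetic neurons (CPM are counts scaled to 1000000 reads per library, with TMM scaling), against 195 to 316 CPM in the other 4 libraries. Markers fixed for the tissue were present in every library, with summed levels of 5731 to 14295 CPM in KO and 5396 to 9554 CPM in WT for smooth muscle, and 1123 to 1657 CPM in KO and 915 to 1632 CPM in WT for endothelium. Macrophage markers summed to 656 to 1432 CPM in KO and 1980.07 to 2290.4 CPM in WT, and for 8 of 8 of these markers the highest KO library lay below the lowest WT library, against 8.38% of all genes. Adipocyte markers summed to 991 to 1287 CPM in KO and 245 to 788 CPM in WT. Of 8 epithelial markers 5 were tested, with a sum of 13.8 to 24.1 CPM in KO and 13.7 to 15.2 CPM in WT. In a bulk sample fewer cells of a type and less RNA per cell cannot be told apart.

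The promoters of 3 members are shown because these genes had the highest level (Hspg2), the widest range over libraries (Npnt) and the narrowest range (Agrn). Each window runs from 250 bases before to 50 bases after the first start listed by RefSeq, 5′ to 3′ on the gene's strand in GRCm38.p6, at chr4:137468553-137468852 (plus strand) for Hspg2, chr3:132950242-132950541 (minus strand) for Npnt and chr4:156197439-156197738 (minus strand) for Agrn. Capitals mark GC boxes, the letters GGGCGG on either strand.
Hspg2: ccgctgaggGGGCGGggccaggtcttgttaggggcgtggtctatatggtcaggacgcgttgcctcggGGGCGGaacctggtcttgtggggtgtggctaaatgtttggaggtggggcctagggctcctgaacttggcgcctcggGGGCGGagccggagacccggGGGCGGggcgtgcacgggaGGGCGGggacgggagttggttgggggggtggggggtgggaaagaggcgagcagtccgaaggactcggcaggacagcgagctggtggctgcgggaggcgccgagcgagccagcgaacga
Npnt: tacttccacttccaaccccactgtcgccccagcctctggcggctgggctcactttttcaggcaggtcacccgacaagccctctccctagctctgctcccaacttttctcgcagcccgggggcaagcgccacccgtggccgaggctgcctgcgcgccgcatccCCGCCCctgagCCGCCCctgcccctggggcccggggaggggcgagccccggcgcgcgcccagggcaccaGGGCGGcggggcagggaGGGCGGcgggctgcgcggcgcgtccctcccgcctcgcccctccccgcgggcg
Agrn: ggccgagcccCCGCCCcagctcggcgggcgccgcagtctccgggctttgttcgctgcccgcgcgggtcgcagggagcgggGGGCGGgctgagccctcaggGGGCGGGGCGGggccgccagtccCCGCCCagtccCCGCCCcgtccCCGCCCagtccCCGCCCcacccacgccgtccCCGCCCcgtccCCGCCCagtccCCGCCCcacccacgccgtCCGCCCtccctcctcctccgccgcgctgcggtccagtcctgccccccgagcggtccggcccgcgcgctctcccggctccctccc

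These windows held 5 GC boxes for Hspg2, 4 for Npnt and 12 for Agrn, counting both strands and overlapping matches, and the Nid1 window held 1. At least 1 GC box was present in 35.7% of the 32841 RefSeq windows of the same length. The share of G and C was 70.3% for Hspg2, 76.7% for Npnt, 83.3% for Agrn and 64.7% for Nid1, against a median of 52.7% over all windows. None of these 4 windows held a TATA box (TATAAA, found in 13.6% of all windows) or a CArG box, the serum response factor motif (found in 1.63%). The Nid1 window alone held a CCAAT box (CCAAT, found in 37.4%). A match is a run of letters only, and the RNA data do not show which start was used. At the second start listed, the window held 0 GC boxes for Npnt (68% G and C) and 2 for Agrn (61.3%).

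The 5 genes differed widely in level per length of exon. In CPM per kilobase of exon (RPKM), Hspg2 was at 126 ± 42.8 in KO and 144 ± 26.1 in WT (SD, n = 3 each), above 98.0% of tested genes in KO and 98.3% in WT. Npnt was at 75.6 ± 36.3 RPKM in KO and 51.8 ± 16.0 RPKM in WT. Nid1 followed at 52.6 ± 6.69 RPKM in KO and 46.1 ± 11.9 RPKM in WT, and Agrn at 22.3 ± 4.16 RPKM in KO and 24.1 ± 2.08 RPKM in WT. Nid2 had the lowest level, 4.69 ± 0.835 RPKM in KO and 5.26 ± 0.948 RPKM in WT. The order Hspg2, Npnt, Nid1, Agrn, Nid2 held in every library but WT 3, where Nid1 lay above Npnt. Npnt thus lay above Nid1 in 5 of 6 libraries, although their ranges overlapped in both groups. The difference between these genes was not tested. Hspg2 in KO 3 (78.6 RPKM) lay below Npnt in KO 2 (116 RPKM), while Agrn and Nid2 did not overlap with their neighbours in either group. Of the exon bases of Nid2, 386 are shared with 2700060E02Rik on the other strand, where reads were left out as ambiguous. Over its remaining 4498 bases Nid2 was at 5.09 ± 0.907 RPKM in KO and 5.71 ± 1.03 RPKM in WT.

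**Figure D1:**
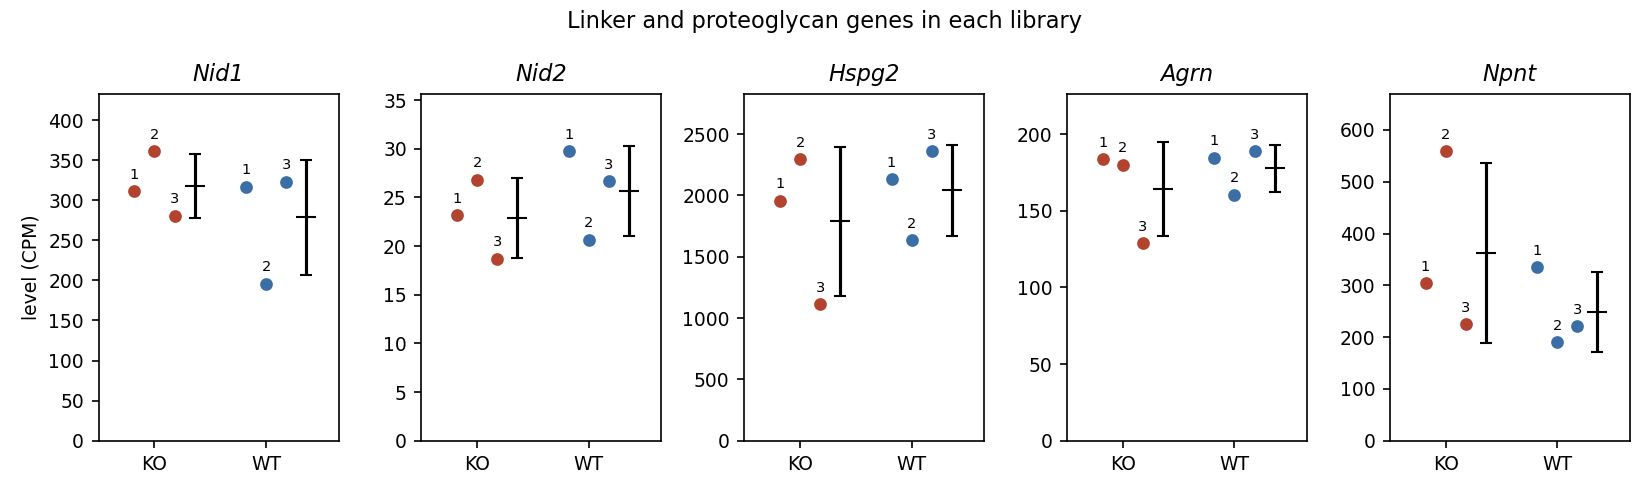
Level in CPM (y axis, from 0, a scale for each gene) of the 5 genes in KO (red) and WT (blue) libraries; numbers are replicates and black bars give the mean ± SD (n = 3 each). KO and WT points overlap for each of the 5 genes, and Npnt in KO 2 is at 559 CPM against 189.8 to 335 CPM in the other libraries.

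Between genotypes, 0 of the 5 genes changed past the threshold (adjusted p under 0.05 over the 15937 genes tested). The groups overlapped for 5 of 5 members, while 16.7% of all tested genes had groups that did not overlap. With edgeR's quasi-likelihood test 0 of 5 members had an unadjusted p under 0.05, against 4.02% of all genes for higher and 3.98% for lower in KO, and 0% of all genes passed the adjusted threshold. DESeq2 called 0 of 5 members and 0.347% of the genes it gave an adjusted p, and limma-voom 0 of 5 members and 0% of genes. Of the 5 log2 fold changes 2 were positive and 3 negative, with a median of -0.12, beside 60.9% positive and a median of 0.068 over all genes tested. The 95% intervals below show how large a change the 3 against 3 design still allowed.

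The nidogens, the linkers between laminin and type IV collagen, had opposite signs. Nid1 (chromosome 13, 13529869 to 13604542, plus strand, mm9, counted over 20 exon intervals) was at 312, 361 and 281 CPM in KO 1, KO 2 and KO 3, against 317, 196 and 323 CPM in WT 1, WT 2 and WT 3. WT 2 was the low library and the other 5 lay close together. The means were 318 ± 40.4 CPM in KO and 279 ± 71.8 CPM in WT, a log2 fold change of 0.19 (SE 0.23, 95% interval -0.36 to 0.74, edgeR adjusted p 0.895). Without WT 2 the log2 fold change was -0.011. Nid2 (chromosome 14, 20570479 to 20631009, plus strand, mm9, 21 exon intervals) was at 23.2, 26.8 and 18.7 CPM in the KO libraries, against 29.7, 20.6 and 26.7 CPM in the WT libraries. KO 3 and WT 2, the libraries with the highest neuronal markers, were the lowest of their groups for Nid2, as they were for each of the 5 genes. The means were 22.9 ± 4.08 CPM in KO and 25.7 ± 4.63 CPM in WT, a log2 fold change of -0.17 (SE 0.20, 95% interval -0.65 to 0.32, edgeR adjusted p 0.895).

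Ratios within a library do not depend on library scaling and were compared for the nidogens and their laminin partner. Lamc1, which encodes the laminin gamma 1 chain that nidogens bind, was at 397, 449 and 292 CPM in KO, against 401, 304 and 384 CPM in WT. The ratio of Nid1 to Nid2, in RPKM, was 10.9, 10.9 and 12.1 in KO, against 8.61, 7.67 and 9.80 in WT, so each KO library lay above each WT library. The difference of the log2 ratio, KO minus WT, was 0.38, with an exact two-sided permutation p of 0.1, the smallest that 3 against 3 libraries can give (0.15 adjusted over the 3 ratios tested), and it was 0.24 without WT 2 and KO 3. With Nid2 as the denominator, 10.1% of genes had all 3 KO ratios above the WT ratios and 2.85% had them below. The ratio of Nid2 to Lamc1 was 0.0911, 0.0934 and 0.0997 in KO, against 0.116, 0.106 and 0.108 in WT, and each KO library lay below each WT library (log2 difference -0.22, exact p 0.1, adjusted p 0.15), as for 9.54% of genes set against Lamc1, while 3.42% lay above. The ratio of Nid1 to Lamc1 was 0.990, 1.01 and 1.21 in KO, against 0.996, 0.812 and 1.06 in WT, where the groups overlapped (log2 difference 0.17, exact p 0.5, adjusted p 0.5). These 3 ratios share genes and are not independent.

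**Figure D2:**
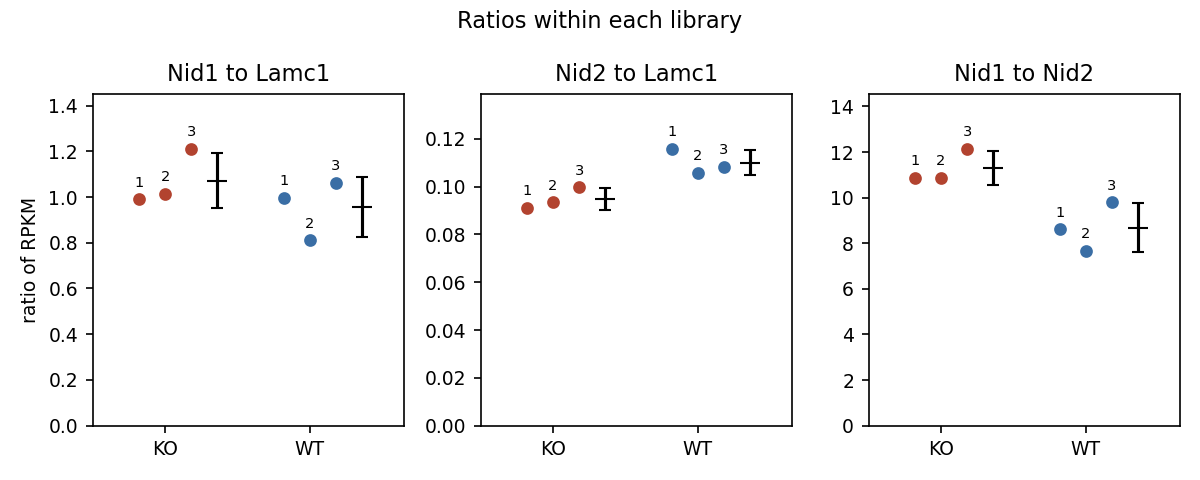
Ratio of RPKM within each library (y axis, from 0) for Nid1 to Lamc1, Nid2 to Lamc1 and Nid1 to Nid2 in KO (red) and WT (blue) libraries, with the mean ± SD (n = 3 each) in black. KO ratios of Nid2 to Lamc1 (0.0911 to 0.0997) lie below WT ratios (0.106 to 0.116), and KO ratios of Nid1 to Nid2 (10.9 to 12.1) lie above WT ratios (7.67 to 9.80).

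The heparan sulphate proteoglycans were both lowest in KO 3, as were Nid2, Lamc1, Col4a1, Col4a2, Col18a1 and Sparc. Nid1 and Npnt were lowest in WT 2. Hspg2 (chromosome 4, 137024718 to 137126545, plus strand, mm9, 97 exon intervals) was at 1955, 2293 and 1114 CPM in KO, against 2130.0, 1635 and 2359 CPM in WT. KO 1 and KO 2 lay within the WT range and KO 3 below it. The means were 1787 ± 607 CPM in KO and 2041 ± 370.2 CPM in WT, a log2 fold change of -0.19 (SE 0.32, 95% interval -0.97 to 0.59, edgeR adjusted p 0.921), and the log2 fold change was 0.057 without KO 3. Agrn (chromosome 4, 155539399 to 155571597, minus strand, mm9, 36 exon intervals) was at 184, 180.2 and 129 CPM in KO, against 185, 160.4 and 189 CPM in WT. It varied least of the 5, with the highest library 1.47 times the lowest, and again KO 3 alone lay below the WT range. The means were 164 ± 30.7 CPM in KO and 178 ± 15.4 CPM in WT, a log2 fold change of -0.12 (SE 0.17, 95% interval -0.53 to 0.30, edgeR adjusted p 0.913), and 0.032 without KO 3. KO 3 also had the lowest summed macrophage markers (656 CPM) and fibroblast markers (2735 CPM, against 4206 to 6123 CPM elsewhere) and the highest neuronal markers, and the part of these in the levels of Hspg2 and Agrn was not tested. Both genes lie on the chromosome of Col15a1 (chromosome 4, 47220884 to 47326037). Agrin is made in a neuronal splice form and in forms of other tissues, and counts summed by gene do not separate them.

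Nephronectin had the widest range of the 5 genes. Npnt (chromosome 3, 132544709 to 132613255, minus strand, mm9, 15 exon intervals) was at 304, 559 and 225 CPM in KO, against 335, 189.8 and 221 CPM in WT. KO 2 was far above the other libraries, WT 1 came next, and the groups overlapped. The highest library was 2.94 times the lowest. The means were 363 ± 174 CPM in KO and 249 ± 76.7 CPM in WT, a log2 fold change of 0.54 (SE 0.39, 95% interval -0.41 to 1.495, edgeR adjusted p 0.779), which was 0.089 without KO 2. Among tested genes with a mean of at least 1 CPM, the coefficient of variation of Npnt over the 6 libraries was above that of 86.7% of genes, while those of the other 4 members were above 35.2% (Agrn) to 65.7% (Hspg2).

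Npnt levels ran beside those of its integrin subunit and of smooth muscle markers. Itga8, which encodes the integrin alpha 8 subunit, was at 1459, 2571 and 1225 CPM in KO, against 1727, 985 and 1086 CPM in WT, with KO 2 again highest and WT 1 next. Its log2 fold change was 0.47 (SE 0.37, edgeR adjusted p 0.806). The RPKM ratio of Npnt to Itga8, computed after these values were seen, was 0.251, 0.262 and 0.221 in KO, against 0.234, 0.232 and 0.245 in WT, the highest 1.18 times the lowest. Smooth muscle markers summed to 8891, 14295 and 5731 CPM in KO, against 9554, 5396 and 7487 CPM in WT. Per 1000 CPM of these markers, Npnt was at 34.2, 39.1 and 39.3 CPM in KO, against 35.1, 35.2 and 29.5 CPM in WT, the highest 1.33 times the lowest. This ratio was not planned either. The marker sum rests mostly on Myh11, Acta2 and Tagln (5670, 4530 and 2384 CPM in KO 2). Among the markers Smtn alone was highest in KO 1 (735 CPM, against 647 CPM in KO 2). The part of smooth muscle content in the level of Npnt was not tested.

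**Figure D3:**
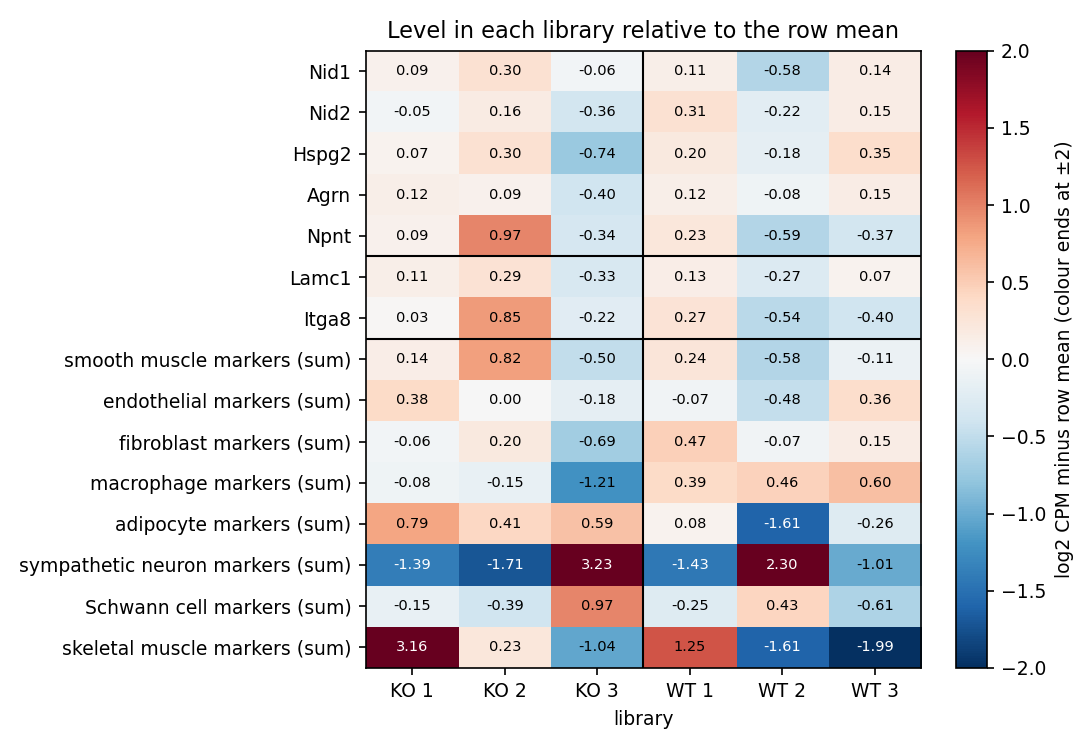
Log2 CPM minus the mean of its row (colour and printed value) for the 5 genes, Lamc1, Itga8 and the summed markers of 8 cell types, in the 3 KO and 3 WT libraries (x axis). KO 2 is the highest library for Npnt (0.97), Itga8 (0.85) and smooth muscle markers (0.82). KO 3 is the lowest for Nid2 (-0.36), Hspg2 (-0.74), Agrn (-0.40), Lamc1 (-0.33), fibroblast markers (-0.69) and macrophage markers (-1.21).

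**Figure D4:**
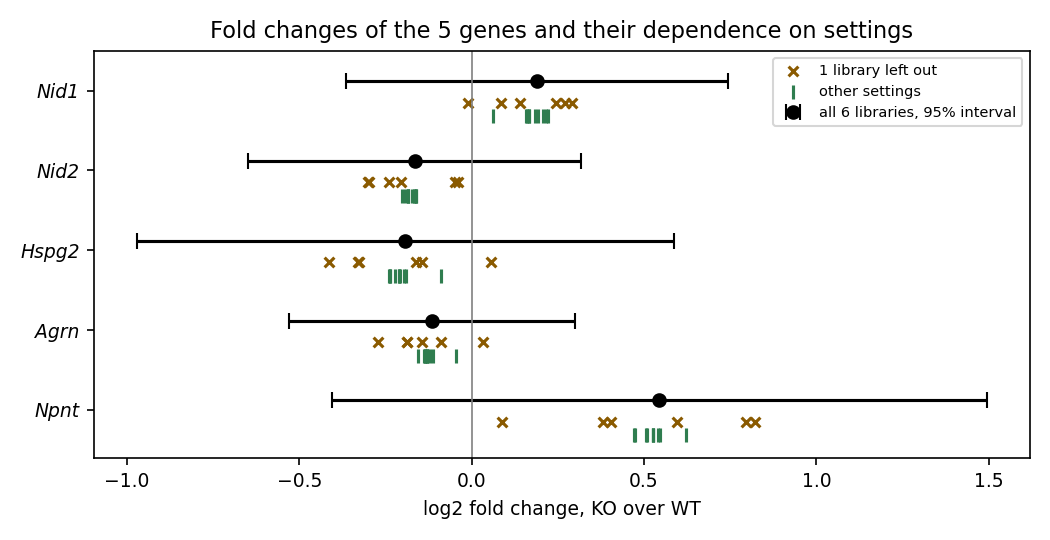
Log2 fold change, KO over WT (x axis), of the 5 genes (y axis): black points and bars give the value with all 6 libraries and its 95% interval, crosses the values with 1 library left out, and green ticks the other settings. Every interval spans 0, and the values of Nid1, Hspg2 and Agrn cross 0 when WT 2 (Nid1) or KO 3 (Hspg2 and Agrn) is left out.

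For each member the 3 named genes with the most similar profile were found by Pearson's r of log2 CPM over the 6 libraries, among 13747 genes. Itga8 was the third of the genes nearest to Npnt (r 0.993), after Usp47 (0.997) and Ubtd2 (0.994). Nid1 was nearest to Trp53bp2 (0.993), Dact3 (0.986) and Hs3st1 (0.985), the last of which encodes a heparan sulphate sulphotransferase. Nid2 was nearest to Tmem39b, Naprt and Zfp652 (0.996 to 0.999), Agrn to Nup160, Fam126a and Heatr5a (0.996 to 0.998), and Hspg2 to Pofut2, Adam11 and P3h3 (0.995 to 0.997). Pofut2 adds fucose to thrombospondin repeats and P3h3 belongs to the prolyl 3-hydroxylases of collagen. These values describe 6 libraries, of which WT 2 and KO 3 stand apart. Each was picked as among the highest of 13747 values, so a high r followed from the choice. Shared regulation was not tested.

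The networks that the linkers join had mixed signs. Their gene lists and those below were chosen with earlier results of these data known. Counts set beside the shares of all genes are therefore descriptive only. Of 11 laminin chain genes 7 were higher and 4 lower in KO, with a median log2 fold change of 0.063, and 3 (Lama2, Lamb3 and Lamc3) had each KO library above each WT library, as did 8.33% of all genes. Lama2, the alpha 2 chain of muscle and nerve basement membranes, was at 366, 461 and 395 CPM in KO, against 346, 175 and 254 CPM in WT (log2 fold change 0.66, edgeR adjusted p 0.617). Lamb3 was at 1.22 ± 0.236 CPM in KO and 0.776 ± 0.134 CPM in WT, Lamc3 at 123 ± 26.3 CPM in KO and 81.6 ± 29.5 CPM in WT, and Lama1 at 0.239 ± 0.176 CPM in KO and 0.497 ± 0.109 CPM in WT. Of 6 type IV collagen chain genes 4 were higher and 2 lower, with a median of 0.21. The groups overlapped for 6 of 6, while 16.7% of all tested genes had groups that did not overlap. The largest log2 fold change among them was that of Col4a3 (0.51), at 48.3 ± 9.56 CPM in KO and 33.9 ± 12.4 CPM in WT. Col4a4 was at 62.5 ± 11.3 CPM in KO and 46.2 ± 17.9 CPM in WT, Col4a6 at 305 ± 70.3 CPM in KO and 246 ± 55.7 CPM in WT, and Col4a2 at 788 ± 271 CPM in KO and 914 ± 129.7 CPM in WT. By edgeR 1 laminin gene (Lama2, higher) and 0 type IV collagen genes had an unadjusted p under 0.05, against 4.02% of all genes for higher and 3.98% for lower in KO, and 0 of 11 and 0 of 6 passed after adjustment in edgeR, DESeq2 or limma-voom. Adipocyte markers were higher in the KO libraries, and their part in these levels was not tested.

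Of 22 other basement membrane genes 20 were tested, 12 of them higher and 8 lower in KO, with a median of 0.053. Col15a1 itself was at 161 ± 60.6 CPM in KO and 494 ± 83.8 CPM in WT (log2 fold change -1.62, edgeR adjusted p 0.587, DESeq2 adjusted p 0.00224). Col18a1, which encodes the other multiplexin collagen, was at 975 ± 344 CPM in KO and 932 ± 166 CPM in WT and was not called. Papln, which encodes papilin, was at 4.84 ± 2.37 CPM in KO and 2.31 ± 0.447 CPM in WT. Hmcn1, which encodes the fibulin-like protein hemicentin 1, was at 19.2 ± 3.55 CPM in KO and 14.2 ± 1.27 CPM in WT. For both the lowest KO library lay above the highest WT library, which makes 2 of 20 beside 8.33% of all genes. In KO 1, KO 2 and KO 3 Papln was at 3.88, 3.10 and 7.53 CPM and Hmcn1 at 17.3, 17.0 and 23.3 CPM, both highest in KO 3. Fbln2, which encodes fibulin 2, a ligand of nidogens and perlecan, was at 316 ± 37.8 CPM in KO and 402 ± 89.6 CPM in WT. None of these passed after adjustment in edgeR. Col15a1 was the only gene of this list that DESeq2 called, beside 0.347% of the genes it gave an adjusted p.

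**Figure D5:**
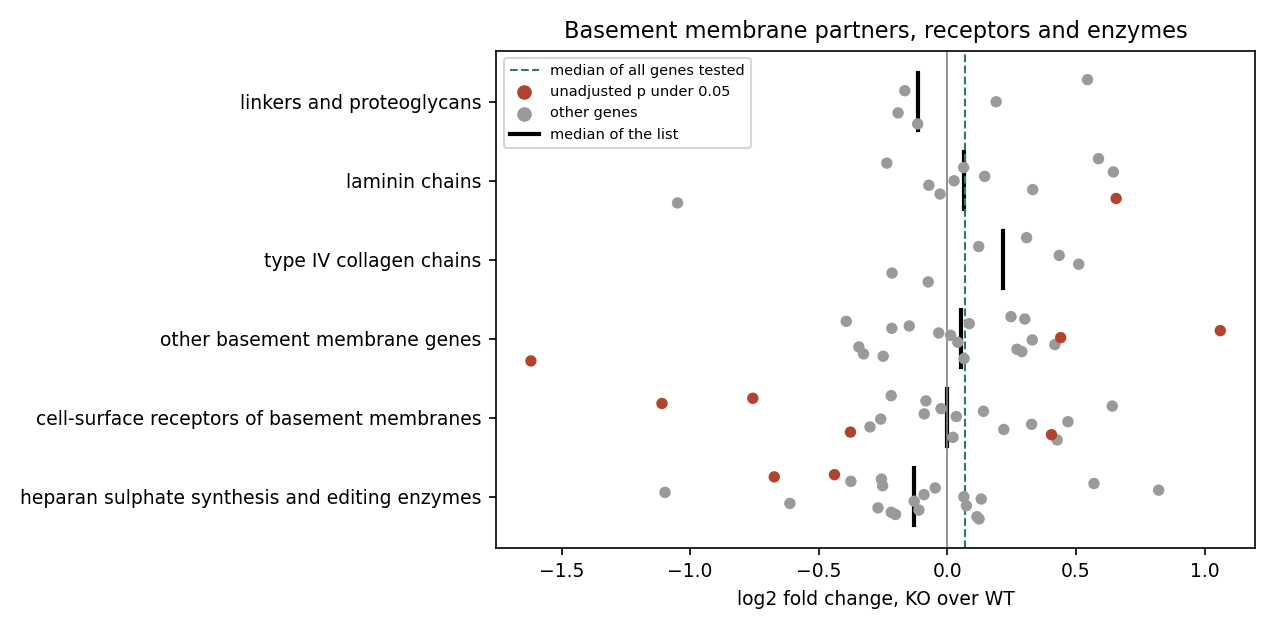
Log2 fold change, KO over WT (x axis), of each tested gene of 6 lists (y axis); red marks an unadjusted p under 0.05 by edgeR, black bars are list medians and the dashed line is the median of all genes tested (0.068). List medians run from -0.13 (heparan sulphate enzymes) to 0.21 (type IV collagen chains), and the far left point is Col15a1 (-1.62).

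The receptors of these proteins were divided, with 9 of 18 genes higher and 9 lower in KO. Dag1, the dystroglycan gene, was at 250.4 ± 51.1 CPM in KO and 247 ± 38.8 CPM in WT. Lrp4, an agrin receptor, was at 34.8 ± 5.15 CPM in KO and 35.4 ± 2.16 CPM in WT, and Musk, the kinase that agrin activates through Lrp4, at 5.46 ± 0.765 CPM in KO and 3.51 ± 1.07 CPM in WT. The lowest KO library for Musk (4.70 CPM in KO 1) lay just above the highest WT library (4.68 CPM in WT 1, edgeR adjusted p 0.629). KO 1 was also the library with the most skeletal muscle marker signal (336 CPM, against 9.43 to 89.4 CPM in the others). Musk was highest in KO 3 (6.23 CPM), where these markers summed to 18.2 CPM. The part of skeletal muscle content in the level of Musk was not tested. Sdc3, which encodes the heparan sulphate proteoglycan syndecan 3, was at 248, 195 and 187 CPM in KO, against 304, 373 and 387 CPM in WT. Its log2 fold change was -0.76 (SE 0.17), with an adjusted p of 0.587 by edgeR and 0.0254 by DESeq2. Sdc3 was the only receptor that DESeq2 called (1 of 18), beside 0.347% of the genes it gave an adjusted p. Sdc1, which encodes syndecan 1, was at 103, 88.5 and 28.2 CPM in KO, against 161, 145 and 167 CPM in WT. Among collagen-binding integrins, Itga1 was at 169 ± 17.1 CPM in KO and 127 ± 11.7 CPM in WT and Itga2 at 10.5 ± 0.723 CPM in KO and 13.6 ± 0.602 CPM in WT. In edgeR 1 of 18 receptor genes (Itga1) had an unadjusted p under 0.05 and a higher level in KO, against 4.02% of all genes. With a lower level in KO 3 of 18 (Sdc3, Itga2 and Sdc1) had one, against 3.98% of all genes, and 0 of 18 passed after adjustment. The KO libraries all lay above the WT libraries for 2 of 18 (Itga1 and Musk) and all below for 3 of 18 (Sdc3, Itga2 and Sdc1), against 8.33% and 8.38% of all genes. Summed macrophage markers were 656 to 1432 CPM in KO and 1980.07 to 2290.4 CPM in WT, and their part in the levels of Sdc3 and Sdc1 was not tested.

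Perlecan and agrin carry heparan sulphate, and the enzymes that build and edit it were lower more often than higher. Of 23 genes 21 were tested, 7 higher and 14 lower in KO, with a median log2 fold change of -0.13, beside 0.068 over all genes tested. In 5 of the 21 (Xylt1, Xylt2, Extl3, Hs6st2 and Hpse) each KO library lay below each WT library, as did 8.38% of all genes. In 2 of the 21 (B3galt6 and Ndst3) each KO library lay above the WT libraries, as did 8.33% of all genes, with B3galt6 at 7.65 ± 0.126 CPM in KO and 7.02 ± 0.117 CPM in WT and Ndst3 at 5.31 ± 0.629 CPM in KO and 3.57 ± 1.53 CPM in WT. Xylt1, which attaches the first sugar of the chain to the core protein, was at 23.1, 20.2 and 13.6 CPM in KO, against 29.9, 27.6 and 33.3 CPM in WT. Its paralog Xylt2 was at 37.3, 34.0 and 27.05 CPM in KO, against 42.9, 39.6 and 50.9 CPM in WT. For both genes KO 3 was the lowest library. Extl3, a glycosyltransferase that starts the heparan sulphate polymer, was at 112 ± 14.7 CPM in KO and 135 ± 2.75 CPM in WT, and Hpse, which encodes the chain-cleaving heparanase, at 17.3 ± 5.52 CPM in KO and 26.4 ± 6.90 CPM in WT. An unadjusted p under 0.05 by edgeR was reached by 2 of 21 (Xylt1 and Xylt2, with log2 fold changes of -0.67 and -0.44 and adjusted p of 0.587 and 0.610), against 3.98% of all genes in this direction, and 0 of 21 passed after adjustment in edgeR, DESeq2 or limma-voom. Without WT 2 and KO 3 the median was -0.12 and 5 of 21 were higher. Over all genes tested with and without these libraries, the median was then 0.0025 and 7952 of 15738 were higher. The part of the lower macrophage marker sums in these levels was not tested. Because this list was chosen with earlier results of these data known, its counts beside the shares of all genes are not independent support.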

How the data were processed

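RNA was sequenced from 6 arteries, 1 library per mouse. The authors deposited unnormalized counts of reads in each gene's exons. According to the header, featureCounts 1.4.6-p4 assigned reads by gene name in the UCSC annotation of mm9, with no strand, read-pair or multi-mapping option set. Reads over exons of more than 1 gene are in its ambiguous class. The submitters' processing notes also list CASAVA, STAR 3.0, Subread and DESeq2, with no order or role. Of alignments, 32.6% to 36.9% were assigned to genes. The lowest count of any of the 5 genes was 474 (Nid2 in KO 3, a counting error of 4.59%), so the spread between animals was the larger error.

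Groups and replicate numbers came from sample titles. KO was compared with WT with edgeR 4.0.16 (R 4.3.3) by its quasi-likelihood F test (glmQLFit, glmQLFTest; TMM; filterByExpr, minimum count 10), with p-values adjusted by Benjamini-Hochberg over all 15937 genes tested and a threshold of 0.05. CPM use TMM-scaled library sizes, RPKM divide them by the exon length in the table, and standard errors come from the F statistic. Ratios were compared by exact permutation over libraries. DESeq2 1.42.0 and limma-voom (limma 3.58.1) were run as alternatives on the same filtered genes. The fits were tested on simulated counts drawn for each gene on its own, which hold no libraries that stand apart from the rest. No pair of libraries in a group agreed within sampling noise (chi-square per degree of freedom 30.4 or more). Named genes were the 5 members, their direct partners, up to 4 genes per list with the smallest unadjusted p, and the 3 nearest profiles per member (mean of at least 1 CPM, prior count 2). Lists and members were chosen with earlier results of these data known. Promoters of 4 members were found in the RefSeq table, and their build is not the mm9 of the counts.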

Additional observations from a re-analysis of the deposited data

How the results depend on the processing

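Over 16 other settings (scaling, tool, filter, replicate block, libraries left out, a covariate) 77 of 80 log2 fold changes of the 5 genes kept their direction, and 0 of 80 had an adjusted p under 0.05. With 1 library left out they ran from -0.011 to 0.29 for Nid1, -0.30 to -0.039 for Nid2, -0.41 to 0.057 for Hspg2, -0.27 to 0.032 for Agrn and 0.089 (without KO 2) to 0.82 for Npnt. The changes of direction were Nid1 without WT 2 (-0.011) and, without KO 3, Hspg2 (0.057) and Agrn (0.032); the cause was not tested. Without both WT 2 and KO 3 the values were 0.061 for Nid1, -0.18 for Nid2, -0.090 for Hspg2, -0.046 for Agrn and 0.62 for Npnt. Counting genes past the threshold gave 53 by DESeq2 (30 higher, 23 lower), 1 in edgeR without WT 2 and KO 3, and 0 with the other settings (0 to 0 with 1 library left out); the cause was not tested. Without WT 2 and KO 3 positive values were found for 2 of 5 members, 7 of 11 laminin chains, 5 of 6 type IV collagen chains, 11 of 20 other basement membrane genes, 10 of 18 receptors and 5 of 21 heparan sulphate enzymes. Over all genes tested with and without these libraries, 7952 of 15738 were then positive, with a median of 0.0025. With all 6 libraries 60.9% were positive, with a median of 0.068. The ratio of Nid1 to Lamc1 (KO minus WT, log2) ran from 0.053 to 0.25 with 1 library left out and was -0.037 without WT 2 and KO 3. The ratio of Nid2 to Lamc1 ran from -0.25 to -0.18 and that of Nid1 to Nid2 from 0.30 to 0.47, and without WT 2 and KO 3 they were -0.28 and 0.24. Deviations of same-numbered libraries from their group means correlated at 0.43, -0.68 and -0.58. KO 3 and WT 2, which stand apart, correlated at 0.77 and carry different numbers. These values therefore cannot show whether replicate numbers pair the libraries. With the replicate block the values were 0.22 for Nid1, -0.17 for Nid2, -0.24 for Hspg2, -0.13 for Agrn and 0.47 for Npnt, each with an adjusted p of 1.00, and 0 genes were called. With 3 libraries per group, changes within the printed 95% intervals are not excluded.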

Other observations

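The make-up of the summed RPKM of the 5 genes was also computed, after the other values were seen and with no test. The sum was 282, 368 and 193 RPKM in KO 1, KO 2 and KO 3, against 304, 213 and 297 RPKM in WT 1, WT 2 and WT 3. Hspg2 made up 48.8%, 44.0% and 40.7% of it in KO, against 49.5%, 54.1% and 56.0% in WT, with KO 1 and WT 1 less than a percentage point apart. Npnt made up 22.4%, 31.6% and 24.3% in KO, against 23.0%, 18.5% and 15.5% in WT, where KO 1 lay below WT 1. Nid1 made up 18.2%, 16.2% and 24.0% in KO, against 17.3%, 15.2% and 18.0% in WT. Agrn made up 8.17% ± 1.32 in KO and 9.02% ± 1.04 in WT, and Nid2 1.72% ± 0.245 in KO and 1.94% ± 0.0904 in WT (SD, n = 3 each). Shares of 1 sum are tied to each other, so a higher share of Npnt lowers the others.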
